A study of Mus musculus with 8 samples.

Results

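The genes described here are the receptors and bridging molecules with which macrophages bind and engulf dying cells, a process called efferocytosis. They are the receptor tyrosine kinases *Mertk*, *Axl* and *Tyro3*, their ligands *Gas6* and *Pros1*, the bridging gene *Mfge8*, the phosphatidylserine receptor *Timd4* and the endocytic receptor *Lrp1*. The members were picked by gene name, 8 of the 26939 genes in the joined count tables, and all 8 were present and passed the filter on low counts in each comparison. TAM is also the usual short name of this receptor family, from the initials of its kinases, so that "TAM receptor" is used below for the family and "TAMs" for tumor-associated macrophages.

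The 8 bulk RNA-seq libraries were of TAMs from EO771 tumors, a mouse breast cancer line placed in the mammary fat pad of adult female mice and harvested on day 21. The cells were sorted as live, CD45+, CD11b+, F4/80+ and Gr-1-. The mice were wild-type (WT, C57BL/6J) or *Unc93b1* 3d/3d, which carry a mutated UNC93B1 protein and so lack functional endosomal Toll-like receptors (TLR3, TLR7 and TLR9) in all cells, not in macrophages alone. Each genotype was left as control or given αMARCO, a rat IgG1 antibody (clone ED31) against the scavenger receptor MARCO, at 100 µg on days 3, 6, 9 and 12, which made 4 groups of 2 libraries: WT control, WT αMARCO, *Unc93b1* 3d/3d control and *Unc93b1* 3d/3d αMARCO. The labels call the control mice untreated, with PBS in their library names, whereas the protocol names an IgG1 isotype antibody, and which of these the control mice received was not settled. The control libraries were pools of several mice, and for the αMARCO libraries pooling is not stated. The genotype entry of *Unc93b1* 3d/3d control replicate 2 reads 3d/4d, while its title reads 3d/3d.

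A dying cell exposes phosphatidylserine on its surface. GAS6 and protein S, the product of *Pros1*, hold on to that lipid through a domain of vitamin K-dependent modified residues and link it to the TAM receptors on the phagocyte. GAS6 binds all 3 receptors, while protein S acts through TYRO3 and MERTK. MERTK is the receptor most tied to engulfment in resident and tumor macrophages, AXL the one most readily induced by inflammatory and interferon signals, and all of them dampen cytokine signaling. MFG-E8 links phosphatidylserine to αv integrins, TIM-4 (*Timd4*) tethers it directly and is typical of tissue-resident macrophages, and LRP1 takes up cargo that includes dying cells marked by calreticulin.

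The RefSeq promoter sequences of 4 members are shown because the main contrasts below are between them: *Mertk* and *Gas6* were higher in *Unc93b1* 3d/3d control TAMs, and *Pros1* and *Timd4* were higher in WT. Each is the 250 bases before the RefSeq start of the gene (GRCm38.p6), 5′ to 3′ on the gene's strand. Capitals mark the GC box, GGGCGG on either strand, and overlapping matches run together.
Mertk, chr2:128698665-128698914, plus strand: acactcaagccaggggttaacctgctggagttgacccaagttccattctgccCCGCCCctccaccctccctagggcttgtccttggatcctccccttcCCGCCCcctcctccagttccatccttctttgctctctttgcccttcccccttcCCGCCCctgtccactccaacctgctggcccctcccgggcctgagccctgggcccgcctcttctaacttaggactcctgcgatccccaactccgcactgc
Gas6, chr8:13494536-13494785, minus strand: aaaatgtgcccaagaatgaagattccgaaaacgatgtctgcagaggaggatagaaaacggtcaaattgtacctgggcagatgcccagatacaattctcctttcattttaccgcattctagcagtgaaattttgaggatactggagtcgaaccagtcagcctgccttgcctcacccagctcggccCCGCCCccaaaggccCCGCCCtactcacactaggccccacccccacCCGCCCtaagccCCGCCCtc
Pros1, chr16:62854057-62854306, plus strand: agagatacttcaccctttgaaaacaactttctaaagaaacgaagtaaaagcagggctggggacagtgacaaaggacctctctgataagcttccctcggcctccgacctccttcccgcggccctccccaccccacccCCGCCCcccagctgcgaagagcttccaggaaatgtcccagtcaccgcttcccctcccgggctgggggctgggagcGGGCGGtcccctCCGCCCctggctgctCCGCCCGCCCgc
Timd4, chr11:46810549-46810798, plus strand: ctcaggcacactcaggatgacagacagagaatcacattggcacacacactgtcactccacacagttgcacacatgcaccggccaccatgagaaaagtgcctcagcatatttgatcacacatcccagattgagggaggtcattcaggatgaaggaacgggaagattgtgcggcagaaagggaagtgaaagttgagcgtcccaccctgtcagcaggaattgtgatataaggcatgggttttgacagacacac
All 8 members had a promoter window. The GC box had 3 matches in *Mertk*, 4 in *Gas6*, 5 in *Pros1*, 4 in *Mfge8*, 3 in *Tyro3*, 1 in *Axl* and 1 in *Lrp1*, and 0 in *Timd4*. Over all 32851 windows of this length, 32.7% held at least 1 GC box. Neither the AP-1 site TGANTCA (6.75% of all windows) nor the TATA box TATAAA (12.4%), searched on both strands, was found in any of the 8. The genes that were higher and those that were lower in WT thus both included windows with several GC boxes. A match is a string of letters in this window and was not tested as a binding site.

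Library totals ran from 15182618 to 26411936 counts, so that 3 counts, the floor used here, were 0.114 to 0.198 CPM (counts per 1000000 counts of the library, with TMM-scaled totals for all gene levels below). *Unc93b1* itself was at 850 and 965 CPM in WT control and 539 and 659 CPM in *Unc93b1* 3d/3d control; the 3d allele changes the protein, so this level does not check the genotype. *Marco*, the antibody's target, was at 0.0684 to 0.942 CPM in the 8 libraries. One library stood apart. In *Unc93b1* 3d/3d αMARCO replicate 2, genes over 5000 bases took 31.3% of the counts, against 37.6% to 43.8% in the others, and the log2 differences between the replicates of that group had an SD of 1.01, against 0.435 to 0.579 in the other groups. All 8 macrophage markers (among them *Adgre1*, *Csf1r* and *Cd68*) were present, and their summed level was 7972 to 10804 CPM in the 8 libraries. Of these 8, 2 were called higher and 2 lower in WT control than in *Unc93b1* 3d/3d control. After αMARCO in WT, 1 was called higher and 1 lower.

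Markers of other cells differed between the groups. The 8 T cell markers summed to 88.3 and 96.9 CPM in the WT control libraries and to 8.12 to 23.0 CPM in the other 6. Mature dendritic cell markers, such as *Ccr7* and *Ccl22*, summed to 1165 and 719 CPM in WT control and to 216 to 399 CPM in the other 6 libraries. WT control was thus the group with the most RNA of both kinds. Fibroblast markers, collagens among them, were lowest in WT αMARCO, at 39.5 and 27.0 CPM, and were at 190.0 and 160 CPM in *Unc93b1* 3d/3d control. They summed to 112 and 87.7 CPM in the WT control libraries and to 170 and 80.9 CPM in the *Unc93b1* 3d/3d αMARCO libraries. Epithelial or tumor cell markers were lowest in WT αMARCO, at 30.7 and 32.5 CPM, and at 49.1 to 106 CPM in the other 6 libraries. Nonclassical monocyte markers summed to 1685 and 1691 CPM in WT control and 652 and 511 CPM in *Unc93b1* 3d/3d control, with 4 of 8 called higher in WT and a median log2 fold change of 1.35. Conventional dendritic cell markers were at 182 and 124 against 49.7 and 33.1 CPM, with 2 of 6 called higher in WT. Endothelial markers were at 293 and 296 against 132 and 109 CPM, with 1 of the 4 tested called higher and a median log2 fold change of −0.17. B cell markers were at 111 and 155 against 27.2 and 26.1 CPM, with 2 of the 4 tested called higher, and NK cell markers at 80.3 and 62.7 against 46.1 and 37.7 CPM, with 1 of 6. Of 8 cell cycle genes 2 were called higher in WT, of 6 classical monocyte markers 1 was called lower, and of 7 neutrophil markers 0 were called by edgeR. The part of these cells in the results on the 8 genes was not tested. Of the T cell, mature dendritic cell, fibroblast and epithelial lists, the epithelial one had 1 of 7 markers under the floor in every library, *Krt19*, and the others none.

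Levels of different genes were compared as CPM per kilobase of gene length. In WT control TAMs the order was *Axl* (98.1 ± 5.58, SD, n = 2), *Lrp1* (66.6 ± 5.52), *Gas6* (20.8 ± 0.277), *Mertk* (15.8 ± 0.299), *Pros1* (9.64 ± 2.34), *Mfge8* (5.55 ± 1.74), *Timd4* (1.28 ± 0.729) and *Tyro3* (0.208 ± 0.0913), and no neighbours in that order overlapped. In *Unc93b1* 3d/3d control TAMs *Lrp1* (116 ± 2.30) and *Gas6* (108 ± 14.8) came first with overlapping libraries, followed by *Axl* (69.0 ± 3.06) and *Mertk* (38.6 ± 0.221). *Gas6* therefore stood under *Axl* in WT and above it in *Unc93b1* 3d/3d control TAMs. WT αMARCO TAMs had *Lrp1* (113 ± 1.54) first, then *Axl* (68.1 ± 2.41) and *Gas6* (28.5 ± 1.06), without overlap. In *Unc93b1* 3d/3d αMARCO TAMs *Axl* (83.5 ± 13.7), *Lrp1* (64.8 ± 30.8) and *Gas6* (52.9 ± 2.70) followed each other with overlap between *Axl* and *Lrp1* and between *Lrp1* and *Gas6*. *Timd4* and *Tyro3* took the last places in all 4 groups, and they overlapped each other in both *Unc93b1* 3d/3d groups.

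**Figure D1:**
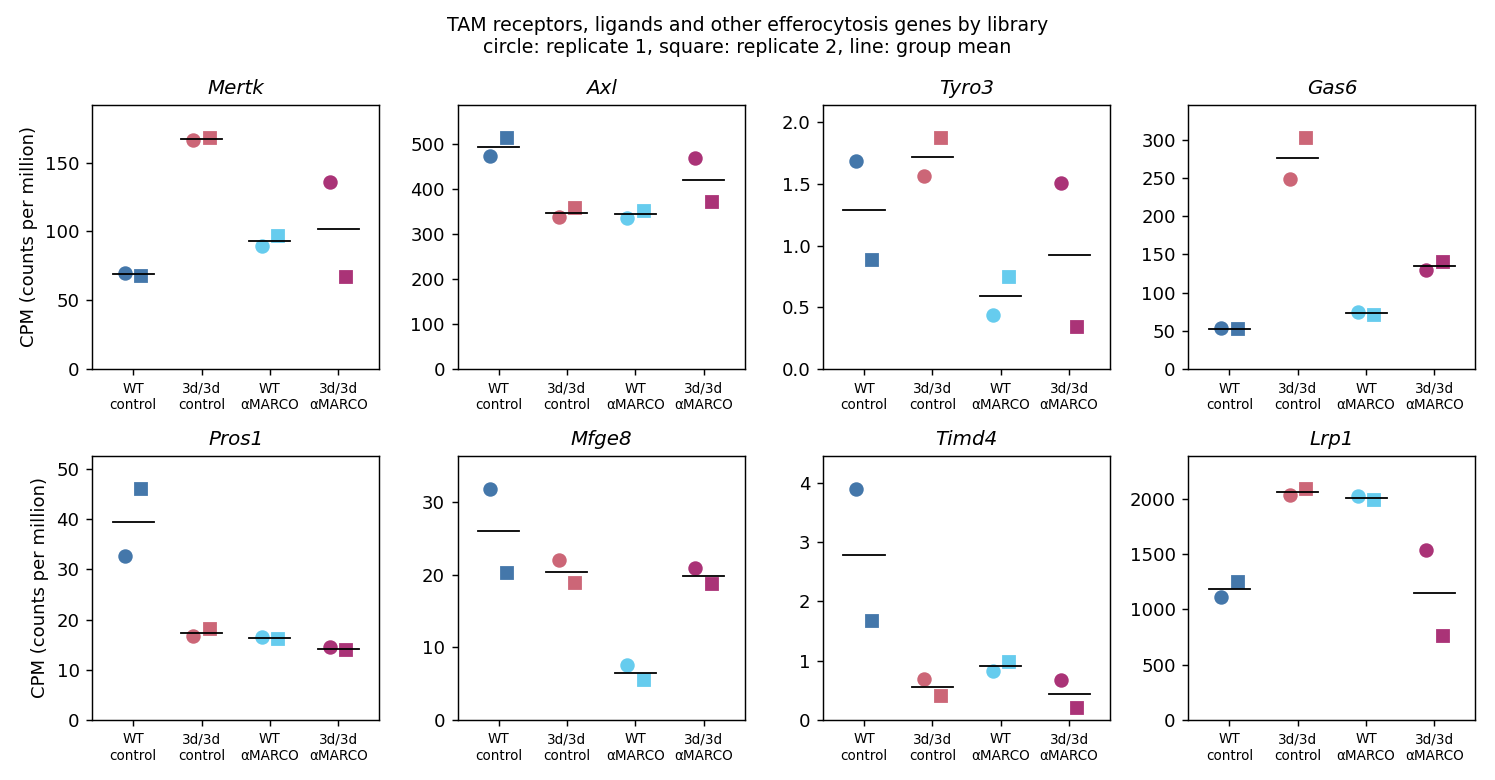
Level of each gene in CPM (vertical axes, starting at 0) in the 8 libraries, by group; circles are replicate 1, squares replicate 2 and lines the group means. *Gas6* sits at 249 and 303 CPM in *Unc93b1* 3d/3d control, above the other 6 libraries, and *Mfge8* at 7.54 and 5.44 CPM in WT αMARCO, below the other 6.

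In control mice, TAMs of WT animals had less *Gas6*, *Mertk* and *Lrp1* and more *Pros1* and *Timd4* than TAMs of *Unc93b1* 3d/3d mice. A called gene is one with an adjusted P of 0.05 or less in edgeR's quasi-likelihood test on the 4 libraries compared and with a log2 fold change of 0.5 or more in either direction. By that rule 5 of the 8 members were called, 2 higher and 3 lower in WT, where 13.0% of the 15600 tested genes were called, 6.58% higher and 6.4% lower. The median log2 fold change of the 8 was −0.05, and that of all tested genes was −0.00363. In these bulk libraries, fewer cells of a type and less RNA per cell cannot be told apart.

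Positions are on GRCm38. Among the receptors, *Mertk* (ENSMUSG00000014361, chromosome 2, 128698956 to 128802894, plus strand) was at 69.6 and 67.8 CPM in WT control and 167 and 168 CPM in *Unc93b1* 3d/3d control. The replicates lay close together and the groups did not overlap. The log2 fold change of WT against *Unc93b1* 3d/3d was −1.30 (standard error, SE, 0.09, adjusted P = 4.51e-05 by edgeR), a level 2.47 times as high in *Unc93b1* 3d/3d TAMs. *Axl* (ENSMUSG00000002602, chromosome 7, 25757273 to 25788705, minus strand) went the other way, with 474 and 513 CPM in WT and 336 and 358 CPM in *Unc93b1* 3d/3d control. Its groups did not overlap either, and its log2 fold change of 0.49 (SE 0.10, adjusted P = 0.00968 by edgeR) was just under the required size. *Tyro3* (ENSMUSG00000027298, chromosome 2, 119797733 to 119818104, plus strand), with 16 to 37 counts per control library, was at 1.69 and 0.886 CPM in WT and 1.57 and 1.88 CPM in *Unc93b1* 3d/3d, which overlapped. The 95% interval of its log2 fold change, −1.49 to 0.62, left both directions possible at this depth.

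The ligands differed in opposite directions. *Gas6* (ENSMUSG00000031451, chromosome 8, 13465374 to 13494490, minus strand) was at 53.4 and 52.4 CPM in WT control and 249 and 303 CPM in *Unc93b1* 3d/3d control. Its log2 fold change of −2.40 (SE 0.12, adjusted P = 4.08e-06 by edgeR) was the largest in size among the members and corresponds to a level 5.28 times as high in *Unc93b1* 3d/3d TAMs. *Pros1* (ENSMUSG00000022912, chromosome 16, 62854307 to 62929346, plus strand) was at 32.6 and 46.1 CPM in WT and 16.6 and 18.2 CPM in *Unc93b1* 3d/3d control, without overlap. It was 2.23 times as high in WT (log2 fold change 1.16, SE 0.17, adjusted P = 0.00319 by edgeR). Within each library, and per kilobase, *Gas6* was 2.63 and 1.82 times the level of *Pros1* in WT control and 24.1 and 26.7 times in *Unc93b1* 3d/3d control. *Axl* was 5.86 and 6.52 times the level of *Mertk* in WT control and 1.74 and 1.83 times in *Unc93b1* 3d/3d control. Fibroblasts are also a source of *Gas6*, and 3 of 7 fibroblast markers were called lower in WT control; all 8 T cell markers and 4 of 7 mature dendritic cell markers were called higher there, as *Pros1* and, below, *Timd4* were. The part of these cells in the results was not tested.

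**Figure D2:**
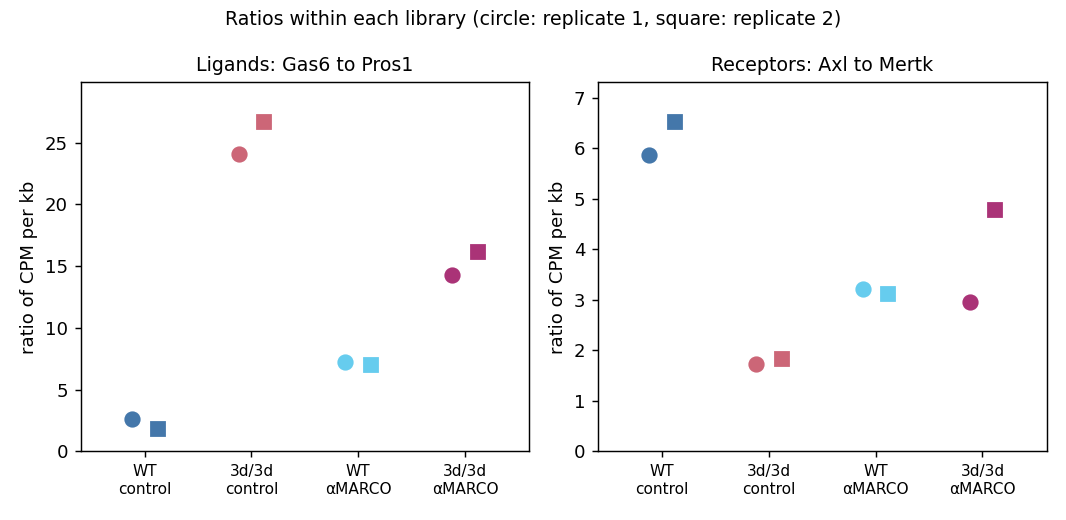
Ratio of *Gas6* to *Pros1* (left) and of *Axl* to *Mertk* (right) within each library, both as CPM per kilobase, by group, with vertical axes starting at 0. *Gas6* to *Pros1* runs from 1.82 in WT control to 26.7 in *Unc93b1* 3d/3d control, and the groups do not overlap; *Axl* to *Mertk* is highest in WT control.

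The other uptake genes did not move as a group. *Lrp1* (ENSMUSG00000040249, chromosome 10, 127538161 to 127621148, minus strand) was at 1110 and 1248 CPM in WT control and 2033 and 2091 CPM in *Unc93b1* 3d/3d control, a log2 fold change of −0.82 (SE 0.11, adjusted P = 0.00159 by edgeR). *Lrp1* has a listed length of 17717 bases, and long genes took a smaller share of the counts in WT control: genes over 5000 bases held 37.6% and 38.5%, against 42.3% and 43.4% in *Unc93b1* 3d/3d control. Once each library was adjusted for the length and GC content of its genes, the log2 fold change of *Lrp1* was −0.51 (adjusted P = 0.0142 by edgeR). With that adjustment *Axl* passed the threshold and was called higher in WT. *Timd4* (ENSMUSG00000055546, chromosome 11, 46810800 to 46844332, plus strand) was rare, with 74 and 30 counts (3.90 and 1.66 CPM) in WT control and 11 and 8 counts (0.690 and 0.406 CPM) in *Unc93b1* 3d/3d control. It was called higher in WT at 2.34 on the log2 scale (SE 0.56, adjusted P = 0.0209 by edgeR). *Mfge8* (ENSMUSG00000030605, chromosome 7, 79133768 to 79149060, minus strand) was at 31.8 and 20.3 CPM in WT and 22.0 and 18.9 CPM in *Unc93b1* 3d/3d control, overlapping, and the log2 fold change was 0.34 (interval −0.16 to 0.83).

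The call of *Timd4* was lost without WT control replicate 1 (log2 fold change 1.60, adjusted P = 0.149 by edgeR) and without *Unc93b1* 3d/3d control replicate 2 (1.98, adjusted P = 0.0913). Other members gained a call with 1 library left out. *Mfge8* was called higher in WT without WT control replicate 2 (0.63, adjusted P = 0.0148 by edgeR), while *Axl* was called without WT control replicate 1 (0.56) and without *Unc93b1* 3d/3d control replicate 2 (0.53). When all 8 libraries shared one estimate of the spread, *Gas6* and *Pros1* were still called, and *Mertk*, *Lrp1* and *Timd4* kept their direction without being called, with adjusted P values of 0.0704, 0.252 and 0.143 by edgeR.

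**Figure D3:**
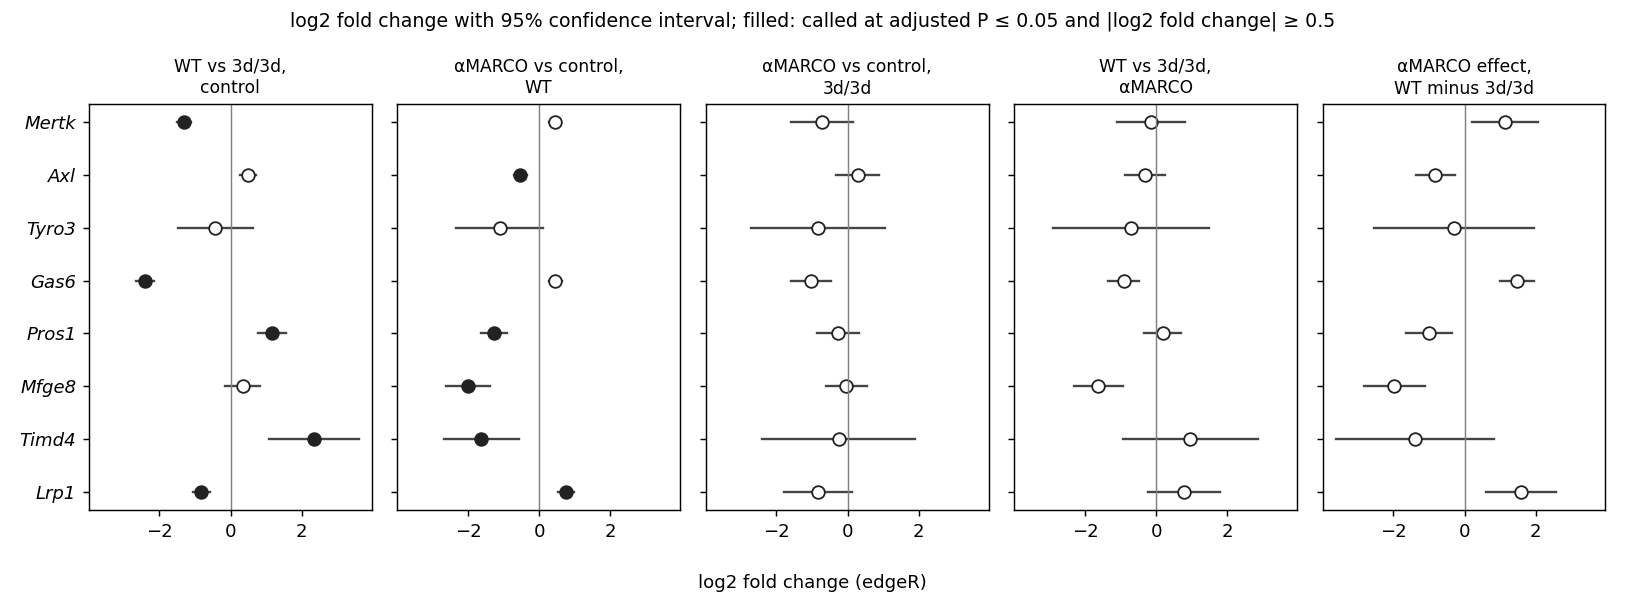
Log2 fold change of each gene (horizontal axes) with its 95% confidence interval in the 4 comparisons and in the difference between the αMARCO effects; filled circles were called. The first panel shows *Gas6* at −2.40 and *Timd4* at 2.34 as the extremes, and the panels that involve *Unc93b1* 3d/3d αMARCO TAMs hold no filled circle.

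In WT mice, αMARCO was followed by less *Mfge8*, *Timd4*, *Pros1* and *Axl* and more *Lrp1* in TAMs. Again 5 of the 8 members were called, 1 higher and 4 lower, against 20.7% of the 15630 tested genes, 8.91% higher and 11.8% lower. The median log2 fold change of the 8 was −0.81, and that of all tested genes was −0.01. The WT control libraries serve in this comparison and in the one before it, so the directions of the 2 are not independent.

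*Mfge8* had the largest change. It fell from 31.8 and 20.3 CPM in WT control to 7.54 and 5.44 CPM in WT αMARCO, a log2 fold change of −2.01 (SE 0.26, adjusted P = 0.00171 by edgeR), or 4.03 times lower. *Mfge8* is also made by fibroblasts and mammary epithelium: 3 of 7 fibroblast markers were called lower in WT αMARCO, and 2 of the 3 epithelial or tumor cell markers that could be tested. Their part in the fall of *Mfge8* was not tested.

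Of the ligands, *Pros1* fell from 32.6 and 46.1 to 16.5 and 16.2 CPM, a log2 fold change of −1.27 (SE 0.16, adjusted P = 0.000858 by edgeR). *Gas6* went from 53.4 and 52.4 to 74.5 and 70.7 CPM, without overlap, and its log2 fold change of 0.46 (SE 0.08, adjusted P = 0.00275 by edgeR) was under the required size. The ratio of *Gas6* to *Pros1* per kilobase was 7.26 and 7.02 in WT αMARCO, above WT control and below both *Unc93b1* 3d/3d groups. All 8 T cell markers and 5 of 7 mature dendritic cell markers were called lower in WT αMARCO, as *Pros1* was. Fibroblast markers, of which 3 of 7 were called lower there, went the other way from *Gas6*. Also called lower were 6 of 8 cell cycle genes, 3 of 6 conventional dendritic cell markers and 3 of 8 nonclassical monocyte markers. So were 2 of 6 NK cell markers, 2 of the 4 endothelial and 2 of the 5 neutrophil markers tested. Of the nonclassical and classical monocyte markers, 1 each was called higher. The part of these cells was not tested.

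Of the receptors, *Axl* fell from 474 and 513 to 334 and 351 CPM (log2 fold change −0.52, SE 0.09, adjusted P = 0.00163 by edgeR). *Mertk* was at 89.7 and 96.9 CPM after αMARCO, above the 69.6 and 67.8 CPM of the controls, with a log2 fold change of 0.44 (SE 0.08, adjusted P = 0.00248 by edgeR) that was under the required size. The ratio of *Axl* to *Mertk* was 3.21 and 3.12, below that of WT control. *Tyro3* had 9 and 19 counts (0.435 and 0.744 CPM) against 1.69 and 0.886 CPM, with a log2 fold change of −1.11 whose interval ran from −2.33 to 0.12.

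*Lrp1* rose from 1110 and 1248 to 2026 and 1988 CPM, a log2 fold change of 0.77 (SE 0.10, adjusted P = 0.000694 by edgeR). Genes over 5000 bases held 43.8% and 42.3% of the counts in WT αMARCO, more than in WT control. With the same adjustment for length and GC content the log2 fold change of *Lrp1* was 0.53 (adjusted P = 0.00379 by edgeR), and *Mertk* and *Gas6*, at 0.50 and 0.61, then passed the threshold, *Mertk* only just. With a term for the replicate number added to that adjustment, 2 members were called higher instead of 3. *Timd4* fell to 17 and 25 counts (0.821 and 0.979 CPM), a log2 fold change of −1.62 (SE 0.47, adjusted P = 0.0234 by edgeR).

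*Timd4* lost its call without WT control replicate 1 (−0.88, adjusted P = 0.219 by edgeR) and without either αMARCO replicate (adjusted P = 0.132 and 0.0902), and *Axl* dropped under the required size without WT control replicate 2 (−0.47) or WT αMARCO replicate 1 (−0.49). Calls were gained by *Tyro3* without WT control replicate 2 (−1.49, adjusted P = 0.0490 by edgeR) and by *Gas6* without WT αMARCO replicate 2 (0.51, adjusted P = 0.0133). With all 8 libraries in one model *Mfge8* and *Pros1* were called, and *Axl*, *Lrp1* and *Timd4* were not (adjusted P = 0.152, 0.221 and 0.212 by edgeR).

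In *Unc93b1* 3d/3d mice no member was called after αMARCO. Neither was any other gene (0.0% of 15428 by edgeR), while DESeq2 called 60. An unadjusted P no larger than 0.05 was found by edgeR for 744 genes. That is under a share of 0.05 of the tested genes, the share to be had without any effect. With αMARCO replicates so far apart, this share does not decide whether αMARCO had an effect. The median log2 fold change of the 8 was −0.49, and that of all tested genes 0.03. The spread between the αMARCO replicates of this genotype was the widest of all groups. CPM of the groups did not overlap for 6 members, 1 higher and 5 lower with αMARCO, and 39.0% of all tested genes did not overlap either.

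*Gas6* went from 249 and 303 CPM in *Unc93b1* 3d/3d control to 130 and 140 CPM with αMARCO, and here the replicates were close together. Its log2 fold change was −1.02 (SE 0.23, unadjusted P = 0.0041, adjusted P = 0.823 by edgeR). DESeq2 called it (adjusted P = 0.0444), and edgeR called it when either αMARCO library was left out, at −0.98 without replicate 1 and −1.06 without replicate 2. The ratio of *Gas6* to *Pros1* was 14.3 and 16.2, below *Unc93b1* 3d/3d control and above both WT groups. The fibroblast markers were at 170 and 80.9 CPM in these αMARCO libraries and at 190.0 and 160 CPM in the controls, and their part was not tested.

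*Mertk* and *Lrp1* differed widely between those αMARCO replicates. *Mertk* was at 136 and 67.0 CPM and *Lrp1* at 1534 and 762 CPM, in both cases lower in replicate 2, the library with few counts in long genes. Their log2 fold changes against *Unc93b1* 3d/3d control were −0.71 (SE 0.36) and −0.83 (SE 0.40), and all 4 values lay below those of the control libraries. With replicate 2 alone standing for the group both were called by edgeR, at −1.32 and −1.43, and with replicate 1 alone neither was. *Axl* was at 469 and 371 CPM against 336 and 358 CPM, and the log2 fold change was 0.29 (interval −0.31 to 0.89).

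The remaining members were not called with both replicates in the fit. *Mfge8* was at 20.9 and 18.7 CPM, overlapping the 22.0 and 18.9 CPM of the control, and the log2 fold change was −0.03 (interval −0.62 to 0.56). *Pros1* was at 14.6 and 13.9 CPM against 16.6 and 18.2 CPM (log2 fold change −0.28, interval −0.87 to 0.31). *Tyro3* had 34 and 5 counts (log2 fold change −0.84, interval −2.72 to 1.05), and *Timd4* had 15 and 3 counts, the last of them at the floor (log2 fold change −0.25, interval −2.41 to 1.91). *Tyro3* was called lower by edgeR, at −2.31 (adjusted P = 0.0195), when replicate 1 was left out and the 5 counts of replicate 2 stood for the group.

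Under αMARCO, WT and *Unc93b1* 3d/3d TAMs were compared in the same way, and again no member was called (0.0% of 15722 tested genes by edgeR, whereas 1076 genes had an unadjusted P no larger than 0.05 and DESeq2 called 215). For 6 members the CPM of the groups did not overlap, 3 higher and 3 lower in WT, as for 43.7% of all tested genes. *Mfge8* was lower in WT, at 7.54 and 5.44 against 20.9 and 18.7 CPM, with a log2 fold change of −1.62 (SE 0.27, unadjusted P = 0.0019, adjusted P = 0.328 by edgeR). *Gas6* was at 74.5 and 70.7 against 130 and 140 CPM, with a log2 fold change of −0.90 (SE 0.17, adjusted P = 0.359 by edgeR). DESeq2 called both, with adjusted P values of 0.00223 and 0.0335, and so did edgeR's model of all 8 libraries (0.0474 and 0.0429). Fibroblast markers and epithelial or tumor cell markers were lower in both WT αMARCO libraries than in both *Unc93b1* 3d/3d αMARCO libraries, as *Mfge8* and *Gas6* were, and their part was not tested.

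The call and even the direction of *Mertk* in this comparison turned on a single library. Its log2 fold change was −0.14 with an interval of −1.10 to 0.81. Without *Unc93b1* 3d/3d αMARCO replicate 2 *Mertk* was called lower in WT, at −0.58. Without replicate 1 it was at 0.48, under the required size and not called. *Lrp1* was at 2026 and 1988 against 1534 and 762 CPM, and the log2 fold change was 0.79 (interval −0.23 to 1.81). It too depended on a single library, being called higher in WT at 1.40 (adjusted P = 2.63e-11 by edgeR) without *Unc93b1* 3d/3d αMARCO replicate 1 and not called, at 0.36, without replicate 2. *Axl* had −0.31 (interval −0.87 to 0.26) and *Pros1* 0.19 (interval −0.34 to 0.71). *Timd4* and *Tyro3*, at 0.96 and −0.70, had intervals of −0.93 to 2.86 and −2.90 to 1.501 at 3 to 34 counts a library.

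Whether αMARCO acted differently in the 2 genotypes was tested as the difference between its effects in a model of all 8 libraries. By edgeR none of the 16620 tested genes (0.0%) was called. The unadjusted P was no larger than 0.05 for 2549 genes, and DESeq2 called 208. *Gas6* had the smallest unadjusted P of the members, with an effect 1.48 higher in WT on the log2 scale (SE 0.21, unadjusted P = 8.89e-05, adjusted P = 0.281 by edgeR). *Mfge8* had −1.98 (SE 0.38, adjusted P = 0.281) and *Lrp1* 1.59 (SE 0.43, adjusted P = 0.318). DESeq2 called these 3, with adjusted P values of 4.18e-06 for *Gas6*, 0.00242 for *Mfge8* and 0.0136 for *Lrp1*. *Mertk* (1.14), *Pros1* (−0.99) and *Axl* (−0.82) each had an adjusted P of 0.318, and their 95% intervals excluded 0, at 0.21 to 2.07, −1.64 to −0.35 and −1.37 to −0.27. *Timd4* (−1.40) and *Tyro3* (−0.29) had intervals that held 0. When either *Unc93b1* 3d/3d αMARCO library was left out, edgeR called 6 members, with *Mertk*, *Gas6* and *Lrp1* higher and *Axl*, *Pros1* and *Mfge8* lower both times. With the group then at 1 library, its spread was taken from the other groups. *Gas6* ranged from 1.44 to 1.503 over these 2 fits, while *Lrp1* was at 2.205 without replicate 1 and 1.15 without replicate 2.

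A further 86 genes of the pathway, in 10 lists, gave 79 that could be tested. In control TAMs 22 of them were called, 11 higher and 11 lower in WT, beside 13.0% of all genes, and their median log2 fold change was 0.09. These genes were not examined with the adjustment for length and GC content. Long genes took a smaller share of the counts in WT control than in either group compared with it. The part of gene length in the calls of these lists was not tested. Of 13 other receptors for phosphatidylserine or dying cells, 4 were higher and 4 lower. *Stab1*, which encodes the phosphatidylserine receptor stabilin-1, was at 320 and 354 CPM in WT and 1356 and 1414 CPM in *Unc93b1* 3d/3d control (log2 fold change −2.06), and the adhesion GPCR *Adgrb1* (BAI1) and the scavenger receptor *Msr1* were lower at −1.20 and −0.76. *Cd300a*, an inhibitory receptor for the same lipid, was higher at 0.74. None of 8 other bridging molecules was called, the complement genes *C1qa*, *C1qb* and *C1qc* having 0.34, 0.31 and 0.37.

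Among the lists downstream of the receptors, 4 of 8 feedback genes were called in control TAMs. *Socs3*, *Socs1* and *Pik3r1*, encoding cytokine signaling inhibitors and a PI3K subunit, were higher in WT at 0.86, 0.67 and 0.52, and *Ifnar1*, an interferon receptor subunit through which the TAM receptors act, was lower at −0.62. Of 9 genes of nuclear receptors and lipid efflux, *Nr1h3* (LXRα) and *Pparg* were higher at 1.82 and 1.69, and *Abca1*, the cholesterol exporter, was lower at −1.96. The LRP family gave *Lrp12* and *Lrp6* lower, at −1.06 and −0.52. The fractalkine receptor *Cx3cr1* was lower at −0.92, the "do not eat me" signal *Cd47* higher at 0.55, and of the engulfment machinery *Dock1* was lower at −0.79 and *Rhog* higher at 0.58. No gene was called among 12 of phagosome maturation and LC3-associated phagocytosis or among 4 of Gla carboxylation and receptor shedding.

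After αMARCO in WT, 14 of the 79 were called, 5 higher and 9 lower, beside 20.7% of all genes, and their median was −0.16. Here too the adjustment for length and GC content was not examined, and long genes took a larger share of the counts in WT αMARCO. *C1qa*, *C1qc* and *C1qb* fell by 0.73, 0.71 and 0.59 on the log2 scale, the 3 calls among 8 bridging molecules. *Stab1* rose by 1.504, to 993 and 914 CPM, and *Cd300lb* by 0.57. *Abca1* rose by 1.20, while *Pparg* and *Rxra* fell by 0.51 each. *Siglecg* and *Cd24a*, a receptor and a ligand that restrain engulfment, fell by 1.79 and 0.93; both are also B cell genes. The B cell markers summed to 111 and 155 CPM in WT control and 72.7 and 80.9 CPM in WT αMARCO, with 1 of the 4 tested markers called lower and a median log2 fold change of 0.09, and their part was not tested. *Ifnar1* rose by 0.84, and *Lrp8* and *Rac1* fell by 0.66 and 0.51. In *Unc93b1* 3d/3d TAMs after αMARCO, between the genotypes under αMARCO and in the difference of the effects, 0 of the 79 were called by edgeR.

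**Figure D4:**
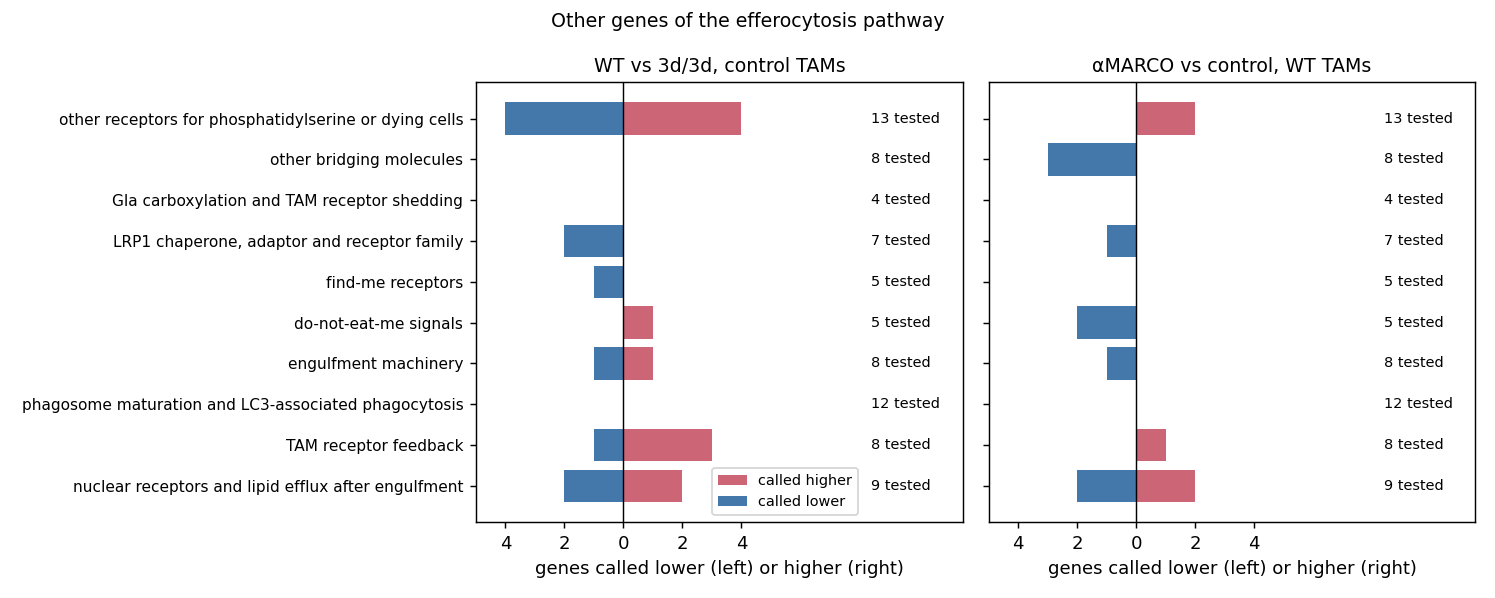
Number of genes called lower (left of 0) or higher (right of 0) in each list of other efferocytosis genes, in the 2 comparisons that had calls; the number tested stands at the right of each row. Receptors for dying cells split 4 to 4 in control TAMs, and the 3 bridging genes called in WT αMARCO TAMs all fell.

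Across the 8 libraries, the members did not all vary in the same way. As a description of log2 CPM, over libraries that share their groups, Pearson's r was 0.81 between *Mertk* and *Gas6* and 0.76 between *Pros1* and *Timd4*, and −0.58 between *Gas6* and *Pros1*. It was 0.74 between *Mertk* and *Lrp1*, 0.70 between *Axl* and *Pros1* and −0.71 between *Gas6* and *Timd4*. Other pairs were near 0, such as *Timd4* and *Lrp1* at −0.011. Among 16619 other genes, those most like *Gas6* were *Fam198b* (r = 0.99), *Zdhhc14* (0.99) and *Fcrls* (0.98), and those most like *Mertk* were *Fndc3b* (0.99), *Tecpr1* (0.98) and *Mcf2l* (0.97). *Pros1* was most like *Slc39a6* (0.99), *Slc35g1* (0.99) and the T cell receptor segment *Trbv3* (0.98). *Mfge8* was most like *Cpe* (0.98), the keratin gene *Krt8* (0.97) and *Il34* (0.97). *Lrp1* was most like *Gm11084*, *Trip12* and *Mroh1* (0.99, 0.99 and 0.98), *Timd4* like *Stk24*, *Tbc1d8* and *Rsu1* (0.99, 0.97 and 0.97). *Axl* had lower values, with *Pyurf* (0.97), a transcript without a symbol (0.94) and *Ppat* (0.93), and *Tyro3* was most like *Dpy19l3* (0.97), another transcript without a symbol (0.96) and *Radil* (0.96).

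The sources used here do not state whether reads were counted by strand, and 3 members share bases with other genes. *Gas6* overlaps *Tmem255b* on the opposite strand by 3100 bases, *Lrp1* overlaps the antisense gene *Gm16217*, and *Mertk* overlaps the antisense gene *Gm14011* and the small nucleolar RNA gene *Gm23172*. The highest count of such a neighbour was 1.09% of the member's count, for *Gm14011*, and was at most 0.727% for the others.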

How the data were processed

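The 8 genes and all lists were chosen with earlier results of these data known. RNA was poly-A selected and sequenced on an Illumina NovaSeq instrument. The deposited raw counts per gene were made by the authors with fastp, HISAT2 2.0.5 and featureCounts 1.5.0 on GRCm38 (submitters' notes) and carry no normalization; use of strand is not given in the sources used here. The 3 tables also hold the authors' normalized values, group means, FPKM, DESeq2 1.40.2 fold changes and P values, which were not used. The tables were joined by gene identifier: of 95230 counts present more than once, 0 differed, and genes absent from a table were set to 0 counts.

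Each comparison of 2 groups was fitted on its 4 libraries, and the difference between αMARCO effects on all 8, in R 4.3.3 with edgeR 4.0.16 (TMM, filterByExpr, robust quasi-likelihood test) and Benjamini-Hochberg adjustment over all tested genes. The threshold for a call, adjusted P no larger than 0.05 with a log2 fold change of 0.5 or more either way, is the study's. CPM use TMM-scaled totals, and per-kilobase values the length listed in the tables. Log2 CPM for correlations used a prior count of 2. Nothing states that replicates of a group came from separate experiments, so P values measure the spread between these libraries only. Intervals and floors cover counting error or this spread only.

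Named were all 8 members, up to 4 called genes of each list with the largest fold changes, 3 genes most correlated with each member and genes that overlap a member; 1 gene of the lists is not reported by name here. The test was checked on counts simulated for WT against *Unc93b1* 3d/3d in control and in αMARCO TAMs. That simulation held no library that stood apart and no shift in long genes. It did not cover the difference between αMARCO effects. Alternatives were DESeq2 1.42.0, DESeq2's size factors, other fold and count thresholds, a replicate block, 1 model of all libraries and each library left out; smooth terms per library for the length and GC content of genes (mgcv 1.9.3) were added after seeing the data. *Itgam* is listed under 2 identifiers, and the row with more counts was used.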

Additional observations from a re-analysis of the deposited data

Results flagged for a closer look

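αMARCO moved 4 of the 8 genes one way in both WT libraries and the opposite way in both *Unc93b1* 3d/3d libraries, as it did 10.7% of all 16620 tested genes. The difference between the effects was tested and passed the correction over all genes for none of them by edgeR. *Mertk* and *Gas6* were higher with αMARCO in WT and lower in *Unc93b1* 3d/3d TAMs, and their effects differed by 1.14 and 1.48 on the log2 scale. *Lrp1* had the same pattern, with a difference of 1.59. *Axl* had the reverse pattern, a fall in WT and higher values in both *Unc93b1* 3d/3d αMARCO libraries, and a difference of −0.817. The *Unc93b1* 3d/3d αMARCO libraries differed little in *Gas6*, at 130 and 140 CPM, and more in *Axl*, at 469 and 371 CPM, *Mertk*, at 136 and 67.0 CPM, and *Lrp1*, at 1534 and 762 CPM.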

How the results depend on the processing

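The members called in WT against *Unc93b1* 3d/3d control TAMs (5) and after αMARCO in WT (5) fell to 2 each in the model of all 8 libraries, and the second to 3 when a log2 fold change of 1 either way was required. Calls over all genes went to 951 and 1366 at that size, to 364 and 164 in the model of all libraries, and, after αMARCO in WT, to 5487 without a minimum size. In the 3 results with no call, DESeq2 called 1 (αMARCO in *Unc93b1* 3d/3d), 2 (genotypes under αMARCO) and 3 (difference of effects) members, and 60, 215 and 208 genes. Testing genes with at least 1 count gave 0, 1 and 3 members and 174, 107 and 152 genes; adjusting for length and GC content gave 0, 0 and 1 members and 1, 18 and 3 genes. The model of all libraries gave 0 and 2 members and 1 and 108 genes in the first 2.

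The replicate numbers did not pair the libraries: deviations of same-numbered libraries correlated at −0.077 to 0.135 over the 6 pairs of groups. With the replicate block the members called were 5, 5, 0, 1 (*Mfge8*) and 0, and the genes called in the 3 results without a call were 5, 97 and 0; with the block and the length and GC adjustment together, 1 member and 112 genes were called between the genotypes under αMARCO.

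With 1 library left out, the members called were 5 to 6 in control TAMs, 3 to 5 after αMARCO in WT, 0 to 4 after αMARCO in *Unc93b1* 3d/3d, 0 to 3 between genotypes under αMARCO and 0 to 6 for the difference, and the genes called were 1493 to 2232, 1940 to 3951, 1 to 5500, 17 to 6366 and 0 to 6440. The highest gene counts of the last 3 came without *Unc93b1* 3d/3d αMARCO replicate 1, which leaves replicate 2, the library that stands apart, alone for its group with its spread taken from the other groups. Genes were also called in all 3 without replicate 2, where replicate 1 stood alone in the same way. The results with no call therefore did not hold with either of these libraries left out. Some directions turned. In control TAMs *Mfge8* ranged from −0.014 (without WT control replicate 1) to 0.63. After αMARCO in *Unc93b1* 3d/3d, *Timd4* ranged from −1.37 to 0.32 and *Mfge8* from −0.13 to 0.086, turning without *Unc93b1* 3d/3d control replicate 1 (0.15 and 0.086) and αMARCO replicate 2 (0.32 and 0.058). Under αMARCO, *Mertk* ranged from −0.58 to 0.48 (the latter under the required size) and *Tyro3* from −1.36 to 0.80, turning without *Unc93b1* 3d/3d αMARCO replicate 1. In the difference *Tyro3* ranged from −0.95 to 1.21, turning without WT control replicate 1 (0.24), WT αMARCO replicate 1 (0.011) or *Unc93b1* 3d/3d αMARCO replicate 1 (1.21). *Timd4* and *Tyro3*, at 3 to 74 counts a library, are limited by depth, and groups of 2 libraries limit the rest.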
